A study of Caenorhabditis elegans with 9 samples.

Results

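The genes described here encode the npr, frpr, dmsr and ckr neuropeptide receptors of Caenorhabditis elegans, measured on Affymetrix arrays of first-stage (L1) larvae. A gene was included when a probe set carried its name, npr, frpr, dmsr or ckr followed by a number, as the only gene symbol in the platform annotation. That gave 77 of the 17118 genes with such a probe set: 44 npr, 17 frpr, 14 dmsr and 2 ckr genes, covered by 83 probe sets. For the 6 genes with several probe sets the one with the highest mean over the 9 arrays stood for the gene. Probe sets of 4 members (npr-15, npr-29, npr-34 and npr-37) are marked for possible cross-hybridisation with related sequences, and their values are uncertain.

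The arrays compared 3 genotypes with 3 arrays each, labelled biological replicates. These were ogt-1(ok430), which lacks O-GlcNAc transferase, oga-1(ok1207), which lacks O-GlcNAcase, and the wild type; each mutant is 1 deletion allele. The transferase puts the sugar O-GlcNAc on nuclear and cytoplasmic proteins and the O-GlcNAcase takes it off. In all 3 genotypes embryos obtained by bleaching hatched without food, larvae were collected after 48 h, fed E. coli OP50 on NGM plates for 3 h, and whole animals were taken for RNA.

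Neuropeptides are cut from precursor proteins, released from dense-core vesicles and read by G protein-coupled receptors on other cells. In C. elegans the flp genes encode peptides ending in RFamide and the nlp genes encode other peptides, and both groups act on receptors of the npr, frpr, dmsr and ckr families to set feeding, locomotion, arousal, sleep and fat use. Of these families, frpr and dmsr are related to the Drosophila FMRFamide and myosuppressin receptors, and ckr to cholecystokinin receptors. Most of these receptors act in neurons, and a few act in the intestine or in muscle.

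Signals are deposited log2 values per probe set, on which 1 unit is a 2-fold difference; they compare a gene between arrays, not 1 gene with another. Array medians ran between 7.421 and 7.466, so the arrays share a scale and a change common to most genes would not be visible. Arrays of the same genotype correlated at 0.992 to 0.997 across probe sets, and with 3 arrays a group the number of arrays sets the precision. The oga-1 signal was lower on the oga-1 mutant arrays (8.63, 8.74 and 8.88) than on the wild-type arrays (9.31, 9.54 and 9.63) at the brightest of its probe sets, which is marked for cross-hybridisation (log2 change -0.75 ± 0.10 SE, limma adjusted p = 0.0181). Its unmarked probe set (-0.58 ± 0.11) and another marked one (-0.30 ± 0.11) were also lower on all mutant arrays, without passing (limma adjusted p = 0.0648 and 0.373). For ogt-1 the signal was higher on the mutant arrays (9.97, 9.99 and 9.69, against 9.32, 9.10 and 9.12 in wild type at 1 of 2 marked probe sets). That difference passed (0.70 ± 0.11, limma adjusted p = 0.0141). The other ogt-1 probe set, which is brighter, was also higher on all mutant arrays, without passing (0.48 ± 0.17, limma adjusted p = 0.187). No source used here places those probes relative to the deletion, so their signal does not check the ogt-1 mutant label and directions rest on the labels. On the first 2 principal components of all probe sets ogt-1 mutant 1 (33.3 on the first), oga-1 mutant 3 (-27.7 on the other) and wild type 1 (24.6 on the other) lay farthest out. On the first component all ogt-1 mutant arrays were positive (14.1 to 33.3) and all other arrays negative. Results are given with and without these 3 farthest arrays where that changes a call. The fit without them has 1 array fewer in each genotype. In a call lost there, fewer arrays and an outlying array cannot be told apart.

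Neuronal RNA was followed with 18 pan-neuronal markers, all of them measured. Their mean log2 signal ran between 10.36 and 10.43 in ogt-1 mutants, 10.24 and 10.30 in oga-1 mutants and 10.25 and 10.41 in wild type. Exact two-sided permutation tests gave p = 0.3 for ogt-1 mutant against wild type and p = 0.2 for oga-1 mutant against wild type, where 3 arrays against 3 cannot go below 0.1. The ogt-1 and oga-1 mutant arrays did not overlap (difference 0.13, exact permutation p = 0.1), and 1 marker, rgef-1, rose in the ogt-1 mutant relative to the oga-1 mutant. The marker unc-31 was lower on all ogt-1 mutant arrays than on all oga-1 mutant arrays, without passing (-0.39 ± 0.11, limma adjusted p = 0.0887). Means of snb-1 (-0.05) and tbb-4 (-0.14) were also lower in the ogt-1 mutant. Of the other tissue lists, 0 of 10 body wall muscle and 0 of 10 germline and embryo markers passed in any limma comparison, and 1 of 10 epidermal markers, grd-10, fell in the ogt-1 mutant relative to the oga-1 mutant (limma adjusted p = 0.0497), a call lost without the 3 arrays that lay farthest out (0.0714). Mean epidermal signals were 8.44 to 8.66 in ogt-1 mutants, 8.78 to 9.03 in oga-1 mutants and 8.48 to 8.73 in wild type, so the oga-1 mutant lay above both others (differences 0.29 from wild type and -0.30 for ogt-1 mutant minus oga-1 mutant, exact permutation p = 0.1 each). Mean muscle signals were 12.27 to 12.40 in ogt-1 mutants, 12.40 to 12.47 in oga-1 mutants and 12.20 to 12.38 in wild type, and the oga-1 mutant was again above wild type (difference 0.15, exact permutation p = 0.1). Mean germline and embryo signals overlapped between all 3 genotypes. The part of these tissue differences in the receptor values was not tested. The RNA is from whole larvae, so fewer cells of a type and less RNA per cell cannot be told apart in any value below.

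Few receptor genes passed the test between genotypes. Only npr-3 passed the test in either mutant against wild type, and it was higher in both. In the direct comparison of the mutants only npr-31 passed, with a lower signal in the ogt-1 mutant. The other 75 members passed in no comparison of the fit without a block. Of these, frpr-11 (-0.78) and dmsr-7 (0.51) had the largest log2 differences each way in the ogt-1 mutant against wild type, and both passed with the replicate number as a block.

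A probe set was called at a Benjamini-Hochberg adjusted p under 0.05 in a limma fit of all 22548 non-control probe sets. In ogt-1 mutant against wild type 1 of 77 receptor genes was called (1.30%), beside 2.59% of all probe sets. In oga-1 mutant against wild type 1 of 77 was called (1.30%), beside 0.497% of all probe sets. In ogt-1 mutant against oga-1 mutant 1 of 77 was called (1.30%), beside 2.89%. With counts of 1 these shares do not set the receptors apart from the other genes.

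Arrays of the ogt-1 mutant and wild type with the same replicate number deviated together, and the fit with that number as a block is therefore given beside this comparison. It called 3 receptor genes instead of 1: npr-3 (limma adjusted p = 0.00771), dmsr-7 (0.0172) and frpr-11 (0.0296). Changes are the same as without the block. The same block moved the number of called probe sets in the whole table to 1034, against 584 without it, and to 1128, against 652, in ogt-1 mutant against oga-1 mutant. In that last comparison npr-31 was still the only receptor gene called (limma adjusted p = 0.0278).

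Counts of genes whose arrays did not overlap between genotypes were also close to the background. In ogt-1 mutant against wild type, 6 receptor genes were higher on all mutant arrays (7.79%, all probe sets 9.98%): npr-3, npr-9, npr-38, frpr-14, frpr-18 and dmsr-7. Another 9 were lower on all mutant arrays (11.7%, all probe sets 11%): npr-10, npr-15, npr-17, npr-21, npr-31, frpr-11, frpr-12, frpr-17 and dmsr-6. In oga-1 mutant against wild type, 7 were higher (9.09%, all probe sets 9.41%): npr-3, npr-9, npr-12, npr-27, npr-30, npr-38 and dmsr-7. The 5 that were lower (6.49%, all probe sets 6.66%) were npr-15, npr-28, frpr-5, frpr-12 and frpr-17. Both comparisons use the same 3 wild-type arrays, so genes named in both do not stand as independent observations.

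Between the mutants the split was uneven. Only npr-29, whose probe set is marked, was higher on all ogt-1 mutant arrays than on all oga-1 mutant arrays (1.30%, all probe sets 10.3%). The 11 that were lower (14.3%, all probe sets 12.6%) were npr-10, npr-15, npr-17, npr-21, npr-27, npr-30, npr-31, npr-36, npr-43, frpr-7 and frpr-11. At an unadjusted limma p under 0.05 there were 0 receptor genes with a higher mean in the ogt-1 mutant, where 9.28% of all probe sets had one, and 5 with a lower mean (6.49%, all probe sets 11.2%). Over both directions that is a smaller share than the 20.5% of all probe sets.

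In ogt-1 mutant against wild type the same unadjusted limit was passed by 7 receptor genes with a higher mean (9.09%, all probe sets 6.83%). Another 7 had a lower mean (9.09%, all probe sets 8.95%). In either direction 15.8% of all probe sets passed it. The oga-1 mutant had 8 such genes with a higher mean than wild type (10.4%, all probe sets 6.38%). It had 5 with a lower mean (6.49%, all probe sets 5.14%), where 11.5% of all probe sets passed in either direction. Median changes of the 77 genes lay near those of all probe sets. They were -0.06 in ogt-1 mutant against wild type (all probe sets 0.00), 0.03 in oga-1 mutant against wild type (0.01) and -0.04 in ogt-1 mutant against oga-1 mutant (-0.02). The first of these turned to 0.06 without the 3 arrays that lay farthest out. By class, the npr genes had a median of -0.13 in ogt-1 mutant against oga-1 mutant, the frpr genes 0.03 and the dmsr genes -0.01, the last of which was 0.03 after a second quantile normalisation. Changes of more than 0.5 on the log2 scale were measured for 3 members in ogt-1 mutant against wild type (3.90%, all probe sets 5.22%), 2 in oga-1 mutant against wild type (2.60%, all 2.49%) and 1 between the mutants (1.30%, all 5.21%).

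**Figure D1:**
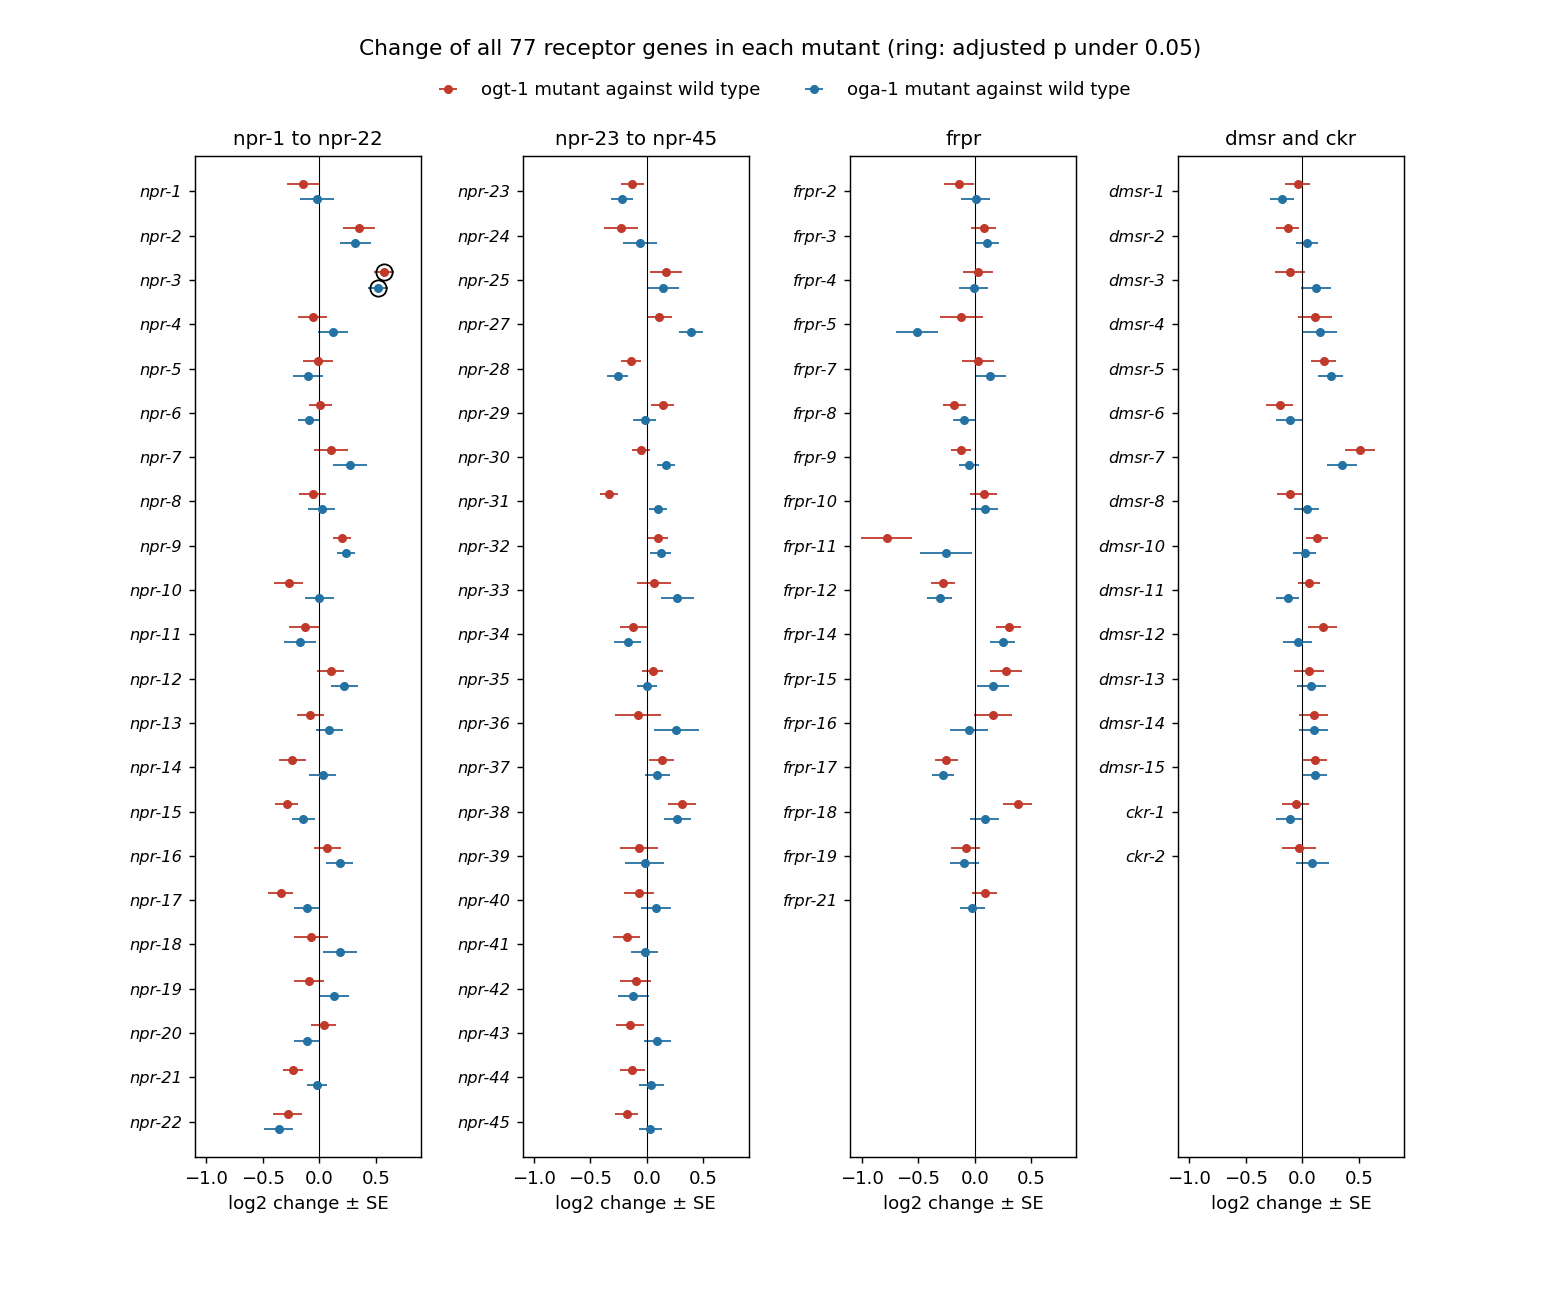
Log2 change of each of the 77 receptor genes in the ogt-1 mutant (red) and the oga-1 mutant (blue) against wild type, with the standard error of the limma fit on the horizontal axis and 1 line per gene. Only npr-3 carries a ring, which marks an adjusted p under 0.05; frpr-11 lies farthest to the left in the ogt-1 mutant at -0.78 and frpr-5 in the oga-1 mutant at -0.51.

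npr-3, on chromosome IV, encodes a receptor for peptides of the flp-15 precursor. Its log2 signal was 10.32, 10.20 and 10.23 on the ogt-1 mutant arrays, 10.27, 10.10 and 10.23 on the oga-1 mutant arrays, and 9.80, 9.57 and 9.67 on the wild-type arrays. All 6 mutant arrays lay above all 3 wild-type arrays, and the mutants overlapped each other. The gene rose in the ogt-1 mutant by 0.57 ± 0.09 (SE, 1.48-fold, 95% interval 0.37 to 0.77, limma adjusted p = 0.0118). It rose in the oga-1 mutant by 0.52 ± 0.09 (1.44-fold, 95% interval 0.33 to 0.72, limma adjusted p = 0.0403). The mutants differed from each other by 0.05 ± 0.09 (95% interval -0.15 to 0.24, limma adjusted p = 0.799).

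The 2 npr-3 calls were not equally stable. The ogt-1 mutant call stood under 16 of 20 alternative settings. It was lost without wild type 2 (adjusted p = 0.0655) or ogt-1 mutant 1 (0.0501) and with the 3-prime to 5-prime gap of control genes as a covariate. Without the 3 arrays that lay farthest out the change was 0.59 (limma adjusted p = 0.0489). The oga-1 mutant call stood under 7 of 20 settings. Of the 9 fits that left out 1 array it stood in 1, the fit without wild type 1 (adjusted p = 0.0480, and 0.0571 to 0.198 in the others). Without the 3 arrays that lay farthest out the change was 0.57 with an adjusted p of 0.159. Over all 20 settings the adjusted p ran between 0.00771 and 0.182 in ogt-1 mutants and between 0.0263 and 0.213 in oga-1 mutants. Since the same 3 wild-type arrays, the lowest 3 for this gene, serve both comparisons, the changes are not 2 independent results.

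Transcripts of the npr-3 ligand gene were not called in either mutant. flp-15 had 12.87, 12.52 and 12.82 in ogt-1 mutants, 12.24, 12.18 and 12.54 in oga-1 mutants and 12.75, 12.43 and 12.52 in wild type, at a marked probe set. Both mutants overlapped wild type. Its change was 0.17 ± 0.13 in ogt-1 mutants and -0.25 ± 0.13 in oga-1 mutants (limma adjusted p = 0.613 and 0.514).

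npr-31 was the only receptor gene called between the mutants. It had 5.63, 5.73 and 5.64 in ogt-1 mutants, 6.15, 6.12 and 6.04 in oga-1 mutants and 6.10, 5.93 and 5.98 in wild type. The ogt-1 mutant arrays lay below the 6 others, and the oga-1 mutant overlapped wild type. In the ogt-1 mutant the gene fell relative to the oga-1 mutant by 0.44 on the log2 scale (SE 0.08, limma adjusted p = 0.0218). Against wild type the same mutant had a change of -0.34 ± 0.08, just outside the threshold (limma adjusted p = 0.0560). These signals are below the median of all probe set means (7.45); background was not assessed, so no fold is given. The call against the oga-1 mutant was lost when ogt-1 mutant 1 or 3, or array 1 or 2 of the oga-1 mutant, was left out (adjusted p = 0.0546 to 0.0799) and without the 3 arrays that lay farthest out (0.0760). A second quantile normalisation also ended it (-0.37, adjusted p = 0.0561).

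**Figure D2:**
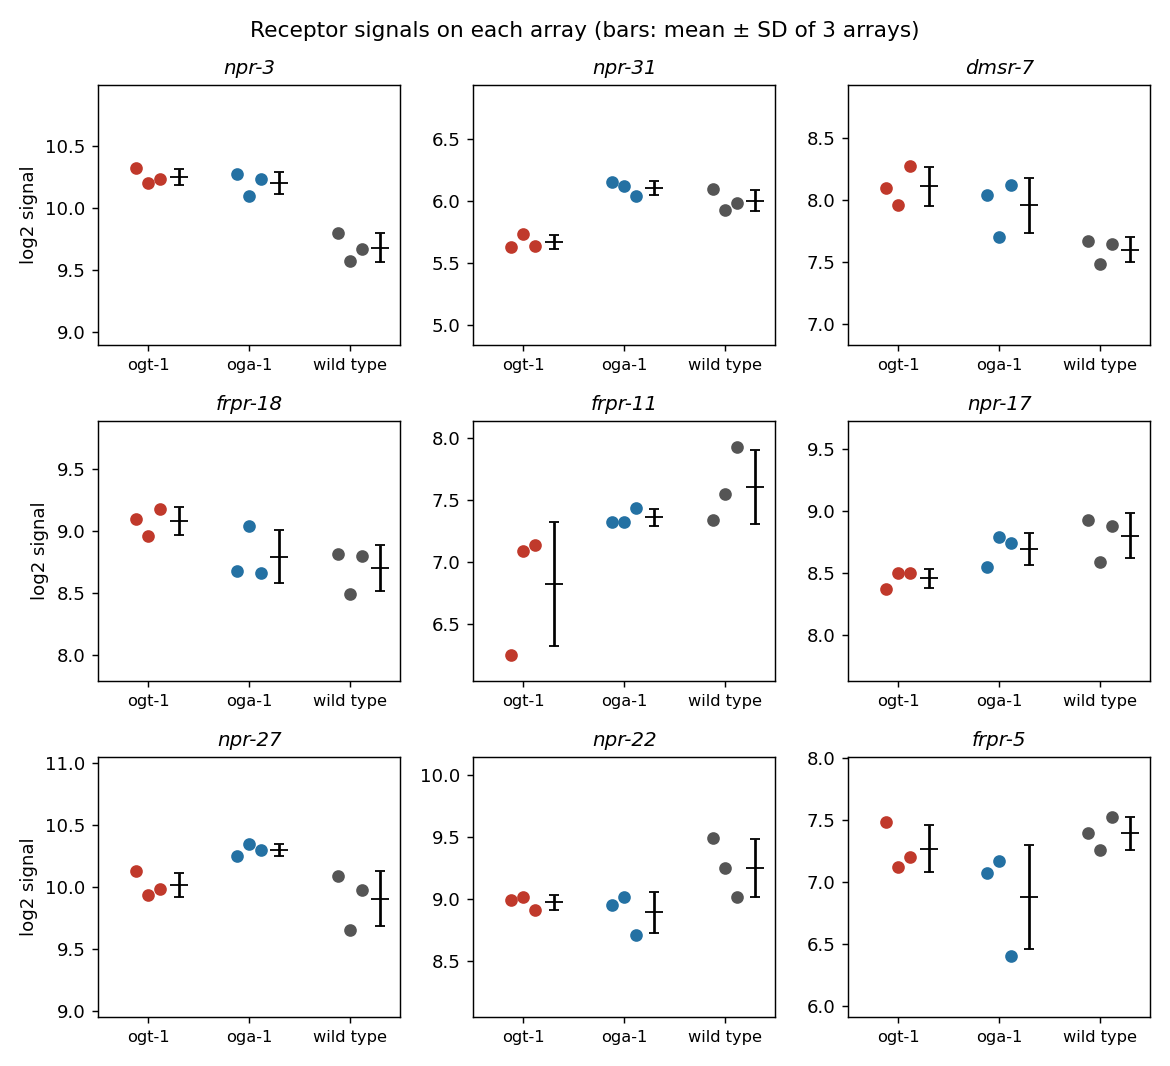
Deposited log2 signal of 9 receptor genes on each of the 9 arrays, with arrays of the ogt-1 mutant (red), oga-1 mutant (blue) and wild type (grey) as points in replicate order and the mean ± SD of 3 arrays as bars; every panel spans the same log2 range. npr-3 separates both mutants from wild type, npr-31 separates the ogt-1 mutant from both other genotypes, and the frpr-11 spread in the ogt-1 mutant comes from 1 array at 6.25.

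Receptors with described ligands were otherwise not called. Of 16 members with a well described ligand or role, 15 did not pass in ogt-1 mutant against wild type, 15 in oga-1 mutant against wild type and 16 between the mutants. The 95% intervals of those uncalled differences reached at most -0.59 and 0.79 in the ogt-1 mutant against wild type. They reached -0.64 and 0.64 in the oga-1 mutant against wild type, and -0.48 and 0.58 between the mutants. These bounds are the largest differences the intervals allow.

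npr-1, the receptor of FLP-18 and FLP-21 peptides whose natural variation separates solitary from social feeding, had 7.44, 7.48 and 7.60 in ogt-1 mutants, 7.53, 7.70 and 7.66 in oga-1 mutants and 8.04, 7.36 and 7.55 in wild type. Wild type 1 was the highest array and wild type 2 the lowest, so both mutants lay inside the wild-type range. The changes were -0.14 ± 0.15 and -0.02 ± 0.15 (limma adjusted p = 0.745 in ogt-1 mutants and 0.973 in oga-1 mutants). The other FLP-18 receptors, npr-4 and npr-5, had changes of -0.06 ± 0.13 and -0.01 ± 0.13 in the ogt-1 mutant, and 0.12 ± 0.13 and -0.10 ± 0.13 in the oga-1 mutant, all uncalled. A second, dimmer npr-5 probe set gave -0.13 ± 0.08 and -0.07 ± 0.08.

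npr-17, an opioid-like receptor for peptides of nlp-24 that acts in the feeding response to starvation, had the largest negative change of the npr genes in the ogt-1 mutant together with npr-31. It measured 8.37, 8.50 and 8.50 in ogt-1 mutants, 8.55, 8.79 and 8.74 in oga-1 mutants and 8.93, 8.59 and 8.88 in wild type. The ogt-1 mutant arrays were below all others. The change was -0.34 ± 0.11 against wild type and -0.24 ± 0.11 against the oga-1 mutant, and neither passed (limma adjusted p = 0.149 and 0.252). A second npr-17 probe set of low signal gave -0.17 ± 0.12 and overlapped.

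npr-22, a receptor for FLP-7 peptides that acts in the intestine in the control of fat, had 8.99, 9.02 and 8.91 in ogt-1 mutants, 8.95, 9.02 and 8.71 in oga-1 mutants and 9.49, 9.25 and 9.02 in wild type. The lowest wild-type array equalled the highest array of each mutant to 2 decimals. Neither change passed (-0.28 ± 0.13 in ogt-1 mutants and -0.36 ± 0.13 in oga-1 mutants, limma adjusted p = 0.328 and 0.324). Most intestinal markers had lower means in the ogt-1 mutant as well, but asp-1 (0.00) and mtl-2 (0.16) did not. The mean of the 9 measured of 10 listed was 10.90 to 11.25 in the ogt-1 mutant and 11.35 to 11.51 in wild type (exact permutation p = 0.1). In the oga-1 mutant, where npr-22 had the larger change, that mean was 11.20 to 11.40 and overlapped wild type (difference -0.13, exact permutation p = 0.2). Against wild type elt-7 and nhx-2 fell in the ogt-1 mutant by the limma test (adjusted p = 0.0481 and 0.0444). With the replicate block 4 of the 9 fell in the ogt-1 mutant, elt-2 and cpr-6 being the others. Between the mutants mtl-2 was the 1 intestinal marker called, higher in the ogt-1 mutant (limma adjusted p = 0.0418). With the block 3 of the 9 were called between the mutants, mtl-2 (0.57) and, with lower signals in the ogt-1 mutant, elt-7 (-0.53) and nhx-2 (-0.67). Without the 3 arrays that lay farthest out the elt-7, nhx-2 and mtl-2 calls were lost (adjusted p = 0.0764, 0.0502 and 0.151). Their part in the npr-22 values was not tested.

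The other npr genes with described roles gave small differences, none of which passed. npr-8, which acts in the neural control of collagen genes during infection, had changes of -0.06 ± 0.12 and 0.02 ± 0.12 in the ogt-1 and oga-1 mutants. For npr-11, a receptor for NLP-1 peptides in the AIA interneurons, they were -0.13 ± 0.14 and -0.17 ± 0.14. npr-9, a galanin-receptor-like gene of the AIB interneurons, had 6.18, 6.0 and 6.13 in ogt-1 mutants, 6.26, 6.12 and 6.05 in oga-1 mutants and 5.89, 5.91 and 5.90 in wild type. All 6 mutant arrays were above wild type for npr-9, by 0.20 ± 0.08 and 0.24 ± 0.08 on average (limma adjusted p = 0.275 and 0.325). npr-15, with a described role in pathogen defence, lay below wild type on all mutant arrays at its marked probe set (-0.29 ± 0.10 and -0.14 ± 0.10, limma adjusted p = 0.204 and 0.636). The gap was narrow: the highest ogt-1 and oga-1 mutant arrays were at 8.70 and 8.72, and the lowest wild-type array at 8.73.

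Cholecystokinin-type receptors gave small differences. ckr-1, a receptor for NLP-18 and NLP-12 peptides, had changes of -0.06 ± 0.12 in ogt-1 mutants and -0.11 ± 0.12 in oga-1 mutants. ckr-2, through which NLP-12 modulates locomotion, had changes of -0.03 ± 0.15 and 0.09 ± 0.15. All groups of both genes overlapped, and the lowest adjusted p of the 4 differences was 0.760.

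npr-2 and npr-38 had means above wild type in both mutants without passing. npr-2 had 8.97, 8.89 and 9.18 in ogt-1 mutants, 9.07, 8.89 and 8.97 in oga-1 mutants and 8.63, 8.40 and 8.96 in wild type, with wild type 3 inside the mutant range (0.35 ± 0.14 and 0.32 ± 0.14, limma adjusted p = 0.250 and 0.422). npr-38 had 6.92, 6.66 and 6.66 in ogt-1 mutants, 6.66, 6.80 and 6.66 in oga-1 mutants and 6.66, 6.35 and 6.32 in wild type, where wild type 1 equalled the lowest mutant arrays to 2 decimals (0.31 ± 0.12 and 0.27 ± 0.12, limma adjusted p = 0.229 and 0.417).

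In the oga-1 mutant, npr-27 had the second largest positive change after npr-3. It measured 10.13, 9.94 and 9.99 in ogt-1 mutants, 10.25, 10.35 and 10.30 in oga-1 mutants and 10.09, 9.66 and 9.98 in wild type, so the oga-1 mutant was above all other arrays. Its change was 0.39 ± 0.11 against wild type (limma adjusted p = 0.234), and the ogt-1 mutant differed from the oga-1 mutant by -0.28 ± 0.11 (0.207). npr-28 had -0.26 ± 0.09 in the oga-1 mutant, with 9.32, 9.44 and 9.55 in that mutant against 9.68, 9.83 and 9.58 in wild type (limma adjusted p = 0.334). Between the mutants, npr-36 (-0.34 ± 0.20) and npr-14 (-0.27 ± 0.12) were lower in the ogt-1 mutant on average, and neither passed (limma adjusted p = 0.352 and 0.262). The 3 wild-type values of npr-36 were 10.05, 9.34 and 9.20 and covered both mutants' ranges.

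Of the frpr genes, frpr-18 has the best described role: it is a receptor for FLP-2 peptides and promotes arousal. It had 9.10, 8.96 and 9.18 in ogt-1 mutants, 8.68, 9.04 and 8.66 in oga-1 mutants and 8.82, 8.49 and 8.80 in wild type. The ogt-1 mutant lay above wild type and overlapped the oga-1 mutant through oga-1 mutant 2. Its change was 0.38 ± 0.13 in ogt-1 mutants and 0.09 ± 0.13 in oga-1 mutants (limma adjusted p = 0.187 and 0.824). A second frpr-18 probe set had 8.0, 8.16 and 8.28 in the ogt-1 mutant against 7.93, 7.66 and 7.74 in wild type, also without overlap (0.37 ± 0.11, limma adjusted p = 0.120).

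frpr-11 had the largest difference of any member, and 1 array carried much of it. Signals were 6.25, 7.09 and 7.14 in ogt-1 mutants, 7.32, 7.32 and 7.44 in oga-1 mutants and 7.34, 7.55 and 7.93 in wild type. All ogt-1 mutant arrays were below all others, and ogt-1 mutant 1 was far below the other two. The change was -0.78 ± 0.23 against wild type and -0.53 ± 0.23 against the oga-1 mutant (limma adjusted p = 0.116 and 0.226). With the replicate block the difference from wild type passed (0.0296). Without ogt-1 mutant 1 the change against wild type was -0.49 (adjusted p = 0.222).

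frpr-12 lies next to frpr-11 on chromosome V, with 0 other protein-coding genes between them in the WBcel235 annotation. It had 6.26, 6.41 and 6.57 in ogt-1 mutants, 6.38, 6.57 and 6.20 in oga-1 mutants and 6.69, 6.62 and 6.75 in wild type. Every mutant array lay below every wild-type array, by -0.28 ± 0.11 and -0.31 ± 0.11 on average, and neither difference passed (limma adjusted p = 0.272 and 0.355). frpr-17 had the same arrangement, with 8.65, 8.79 and 8.81 in ogt-1 mutants, 8.58, 8.81 and 8.75 in oga-1 mutants and 9.17, 8.92 and 8.89 in wild type (-0.25 ± 0.10 and -0.28 ± 0.10, limma adjusted p = 0.272 and 0.347).

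frpr-5 had the most negative change in the oga-1 mutant. It had 7.48, 7.12 and 7.20 in ogt-1 mutants, 7.07, 7.17 and 6.40 in oga-1 mutants and 7.39, 7.26 and 7.52 in wild type. oga-1 mutant 3, one of the 3 arrays that lay farthest out, was the lowest. The change was -0.51 ± 0.19 against wild type (limma adjusted p = 0.348), and the ogt-1 mutant differed from the oga-1 mutant by 0.39 ± 0.19 (0.274). Without oga-1 mutant 3 the change against wild type was -0.27 (adjusted p = 0.706). The FLP-20 receptor gene frpr-3 (0.08 ± 0.11 and 0.11 ± 0.11), the FLP-13 receptor gene frpr-4 (0.03 ± 0.13 and -0.01 ± 0.13) and frpr-16 (0.16 ± 0.17 and -0.05 ± 0.17) had small uncalled differences from wild type in the ogt-1 and oga-1 mutants.

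Of the dmsr genes, dmsr-7 had the largest change. It measured 8.09, 7.96 and 8.27 in ogt-1 mutants, 8.04, 7.70 and 8.12 in oga-1 mutants and 7.67, 7.48 and 7.64 in wild type, and all 6 mutant arrays were above wild type. The ogt-1 mutant had a change of 0.51 ± 0.13 (95% interval 0.23 to 0.79, limma adjusted p = 0.0715, and 0.0172 with the replicate block), and the oga-1 mutant of 0.35 ± 0.13 (0.07 to 0.64, adjusted p = 0.334). A second dmsr-7 probe set gave 0.22 ± 0.11 and 0.27 ± 0.11 and overlapped wild type in both mutants, through wild type 1. dmsr-1, the receptor through which FLP-13 peptides bring on stress-induced sleep, had 10.87, 10.99 and 11.16 in ogt-1 mutants, 10.68, 10.91 and 11.02 in oga-1 mutants and 11.11, 10.98 and 11.06 in wild type (-0.04 ± 0.11 and -0.18 ± 0.11, both uncalled).

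A run of 6 dmsr genes, dmsr-10 to dmsr-15, lies on chromosome V with at most 1 other protein-coding gene between neighbours in the WBcel235 annotation. Their signals ran between 4.41 and 6.0, and with no detection call whether these 6 were expressed was not assessed. Their mean differences in the ogt-1 mutant against wild type were all positive, between 0.06 and 0.18, with the lowest limma adjusted p at 0.569. In the oga-1 mutant they ran between -0.13 and 0.11. The shared direction in the ogt-1 mutant depended on ogt-1 mutant 1, one of the 3 arrays that lay farthest out. That array was the highest of all arrays for dmsr-12 to dmsr-15. For dmsr-13 it had 5.72, while ogt-1 mutants 2 and 3 had 5.33 and 5.36, below the wild-type mean of 5.41. ogt-1 mutants 2 and 3 were also below the wild-type mean for dmsr-14.

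Among the remaining 46 members, changes ran between -0.27 and 0.30 in ogt-1 mutant against wild type, between -0.22 and 0.27 in oga-1 mutant against wild type and between -0.27 and 0.16 between the mutants. The lowest limma adjusted p was 0.218, 0.417 and 0.164 in those 3 comparisons. Ordered by group mean, 14 of the 77 genes were highest in the oga-1 mutant and lowest in wild type, 18 highest in the oga-1 mutant and lowest in the ogt-1 mutant, and 11 highest in the ogt-1 mutant and lowest in wild type. A further 9 were highest in ogt-1 mutants and lowest in oga-1 mutants, 12 highest in wild type and lowest in the ogt-1 mutant, and 13 highest in wild type and lowest in the oga-1 mutant. No order held most of the genes.

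**Figure D3:**
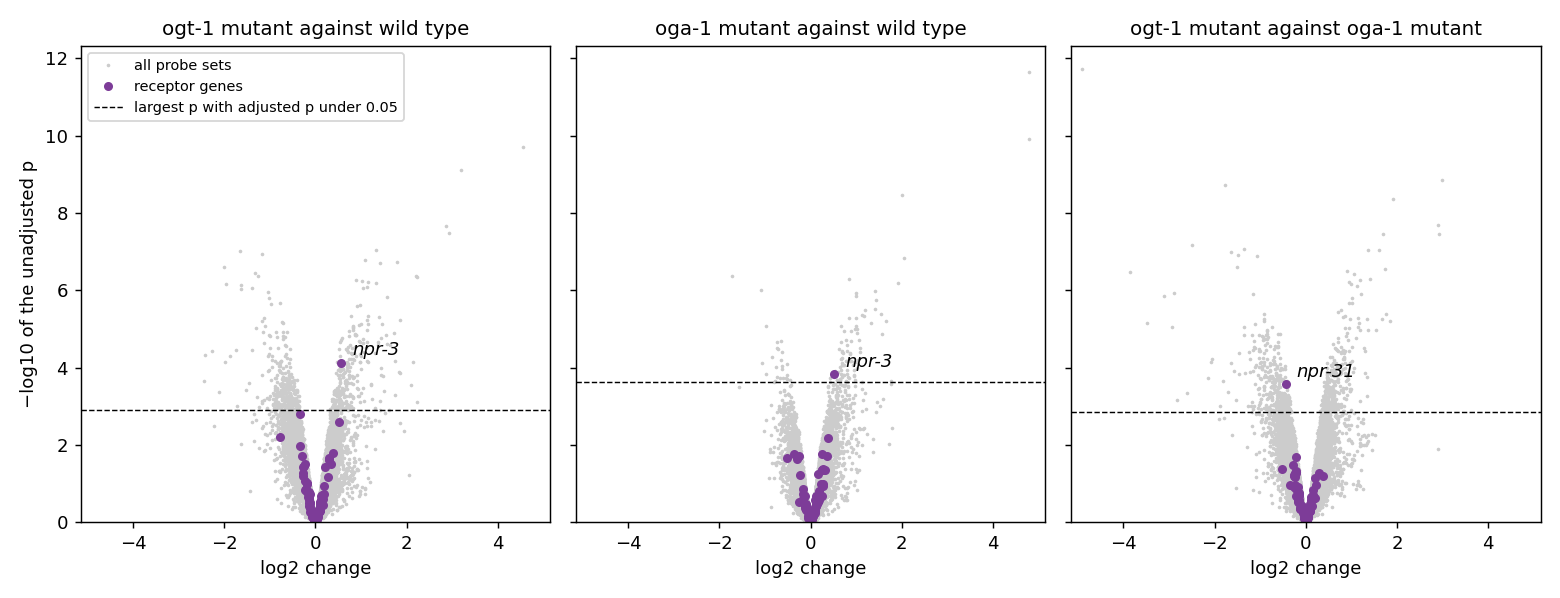
Log2 change on the horizontal axis and -log10 of the unadjusted limma p on the vertical axis for all 22548 probe sets (grey) and the 77 receptor genes (purple) in the 3 comparisons; the dashed line marks the largest p with an adjusted p under 0.05. Most receptor genes lie in the dense part near 0, with npr-3 above the line in both mutants and npr-31 above it in ogt-1 mutant against oga-1 mutant.

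The wild-type arrays differed from each other more for these genes than for the array as a whole. The median SD over the 3 wild-type arrays was 0.132 for the receptor genes and 0.0988 for all probe sets, while in the ogt-1 mutant it was 0.114 and 0.119, and in the oga-1 mutant 0.134 and 0.133. Wild type 1 was the highest of the 9 arrays for 21 receptor genes (27.3%, all probe sets 11.6%), and wild type 2 was the lowest for 25 (32.5%, all probe sets 9.52%). Median deviations from each gene's own mean were 0.11 on wild type 1, -0.11 on wild type 2 and -0.02 on wild type 3. The 23 other peptide receptors measured showed a like split, with median deviations of 0.12, -0.16 and -0.01 on those arrays, and the pan-neuronal markers one of 0.11, -0.07 and -0.01. npr-1, npr-25, npr-36 and npr-39 were among the receptor genes in which wild type 1 was the highest array and wild type 2 below both mutants' means; this was noticed after the values were seen.

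The rest of the pathway was described with lists of ligands, other receptors, processing enzymes and G protein components. Of 12 measured peptide genes whose products act on members, 0 passed in any of the 3 limma comparisons; median changes were -0.05 in ogt-1 mutants and -0.24 in oga-1 mutants against wild type, beside 0.00 and 0.01 for all probe sets. At an unadjusted limma p under 0.05 there were 2 of the 12 in ogt-1 mutant against wild type (all probe sets 15.8%). In oga-1 mutant against wild type there were 8 of the 12 (all probe sets 11.5%). Those 8 were flp-1, flp-7, flp-11, flp-13, flp-21 and nlp-12 with a lower mean in the oga-1 mutant and nlp-1 and nlp-24 with a higher mean, and their lowest adjusted p was 0.231. The 2 other listed peptide genes, flp-20 and flp-34, were not analysed here. In the oga-1 mutant nlp-12, whose peptides act on ckr-2, ran between 11.70 and 12.13, against 12.22 to 12.42 in wild type without overlap (-0.37 ± 0.13, limma adjusted p = 0.334). nlp-1, whose peptides act on npr-11, had 11.11, 11.31 and 11.45 in ogt-1 mutants, 11.11, 11.11 and 11.35 in oga-1 mutants and 11.06, 10.75 and 10.82 in wild type. All mutant arrays were above wild type for nlp-1, and neither change passed (0.41 ± 0.12 and 0.31 ± 0.12, limma adjusted p = 0.122 and 0.380).

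**Figure D4:**
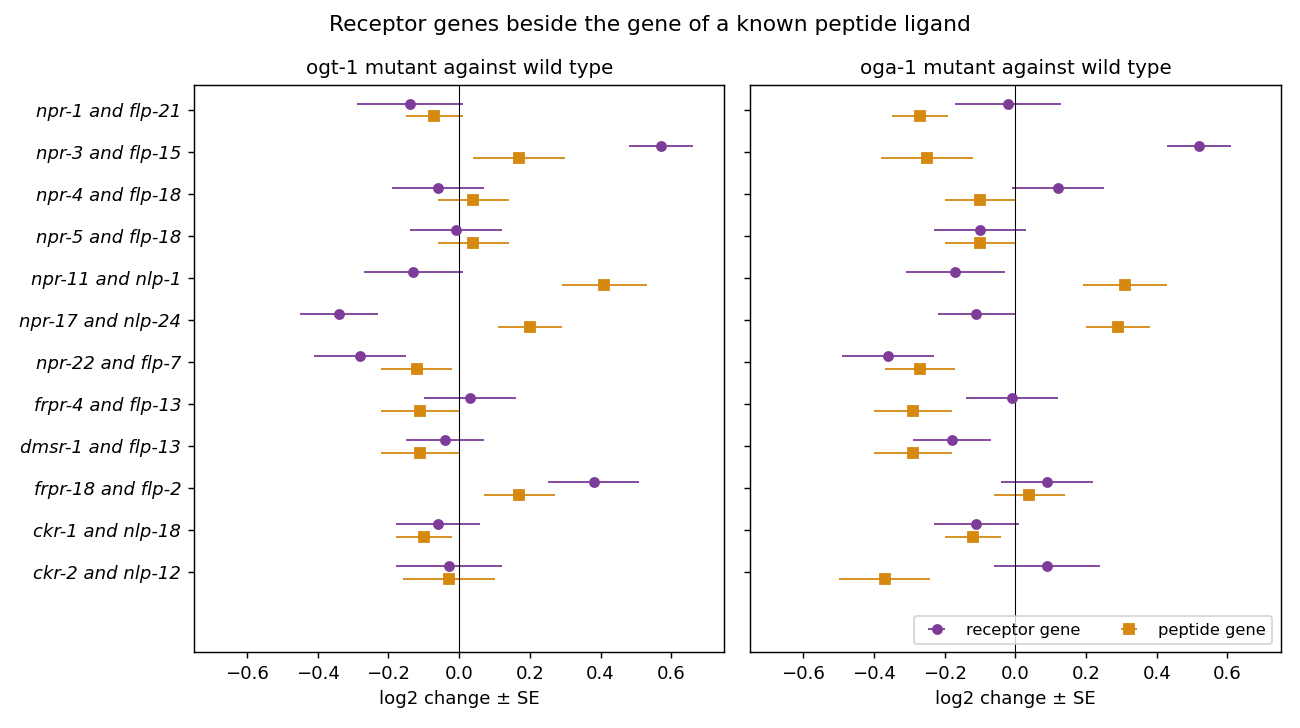
Log2 change ± SE of 12 receptor genes (purple circles) and of the gene of a known peptide ligand (orange squares) in the ogt-1 mutant (left) and the oga-1 mutant (right) against wild type. Only npr-3 passed the test. Receptor and peptide gene lay on opposite sides of 0 in both mutants for npr-4 and flp-18, npr-11 and nlp-1, and npr-17 and nlp-24. They lay on the same side in both for npr-1 and flp-21, npr-22 and flp-7, dmsr-1 and flp-13, frpr-18 and flp-2, and ckr-1 and nlp-18. The remaining pairs shared a side in the ogt-1 mutant or in the oga-1 mutant, not in both. Whether the genes of a pair change together was not tested.

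Other peptide receptors gave few calls too: of 27 listed, 23 were measured and 0 passed in any comparison, with medians of -0.03 and 0.02 in the ogt-1 and oga-1 mutants against wild type. At an unadjusted limma p under 0.05 there were 3 and 2 in those comparisons, and 1 between the mutants (all probe sets 15.8%, 11.5% and 20.5%). Of 17 genes of peptide processing and dense-core release, 0 passed against wild type and 1 between the mutants. That gene was nep-2, which encodes a neprilysin-type peptidase: 8.15, 7.90 and 8.08 in the ogt-1 mutant against 7.45, 7.72 and 7.40 in the oga-1 mutant (0.52 ± 0.11, limma adjusted p = 0.0383). With the replicate block 2 of the 17 were called between the mutants, nep-2 and rund-1, a gene of dense-core vesicle maturation. The unadjusted limit was passed by 2, 4 and 8 of the 17 genes in ogt-1 mutant against wild type, oga-1 mutant against wild type and ogt-1 mutant against oga-1 mutant. Shares of all probe sets were 15.8%, 11.5% and 20.5% in those comparisons.

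Of 23 genes of G protein signalling, rgs-3 fell in the ogt-1 mutant. It encodes a regulator that speeds the shut-off of G proteins. Signals were 8.50, 8.78 and 8.69 in the ogt-1 mutant against 9.26, 9.21 and 9.10 in wild type, without overlap (-0.53 ± 0.10, limma adjusted p = 0.0269). In the oga-1 mutant rgs-3 had 8.70, 8.79 and 8.93, also below wild type, and did not pass (-0.38 ± 0.10, limma adjusted p = 0.176). gpb-2, a G protein beta subunit measured by a marked probe set, rose in the ogt-1 mutant relative to the oga-1 mutant, with 10.94, 10.87 and 11.04 against 10.60, 10.60 and 10.56 (0.37 ± 0.08, limma adjusted p = 0.0362). The rgs-3 call stood in 4 of 9 fits that left out 1 array, and the lowest adjusted p of the others was 0.0533, without wild type 3. It was also lost without the 3 arrays that lay farthest out (-0.42, adjusted p = 0.0982), with only the 2 groups compared (0.0551) and with the gap of control genes as a covariate (-0.40, 0.378).

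The rise of nep-2 and gpb-2 between the mutants went together with other differences between those arrays. The pan-neuronal marker rgef-1 rose as well, with 6.89, 6.87 and 7.01 in the ogt-1 mutant against 6.48, 6.47 and 6.09 in the oga-1 mutant (0.58 ± 0.12, limma adjusted p = 0.0338). Another pan-neuronal marker, unc-31, lay in the other direction without overlap, with 6.02, 6.08 and 6.03 against 6.36, 6.25 and 6.68. It did not pass (-0.39 ± 0.11, limma adjusted p = 0.0887). The median change of the 18 pan-neuronal markers was 0.14. Without the 3 arrays that lay farthest out the nep-2, gpb-2 and rgef-1 calls were all lost (adjusted p = 0.191, 0.136 and 0.0773). The 3-prime to 5-prime gap of the actin, GAPDH and ubiquitin controls, a sign of RNA quality, was 1.31 to 1.51 on ogt-1 mutant arrays and 1.16 to 1.28 on oga-1 mutant arrays, against 1.27 to 1.35 in wild type, and the mutants did not overlap (exact permutation p = 0.1). The gap of the catalase controls, the other such sign, was 1.32 to 2.09 on ogt-1 mutant arrays and 0.98 to 1.13 on oga-1 mutant arrays, against 0.72 to 1.12 in wild type. It separated the ogt-1 mutant from wild type (difference 0.79), a comparison with the npr-3 and rgs-3 calls, and from the oga-1 mutant (0.71, exact permutation p = 0.1 each). Between the oga-1 mutant and wild type, where npr-3 was also called, the catalase gaps overlapped (difference 0.09, exact permutation p = 0.8). With the actin, GAPDH and ubiquitin gap as a covariate 0 receptor genes were called in any comparison, and the whole-table limma calls were 49 in ogt-1 mutant against wild type, 25 in oga-1 mutant against wild type and 9 between the mutants. The npr-3 changes in that fit were 0.57 in ogt-1 mutants and 0.52 in oga-1 mutants, with adjusted p of 0.182 and 0.213, and the npr-31 change between the mutants was -0.39. The part of RNA quality in these results was not tested beyond that fit.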

How the data were processed

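RNA from 9 samples of whole L1 larvae, 3 per genotype, was hybridised as biotin-labelled cRNA made from 4 ug of total RNA, per the labels' protocols. The authors deposited log2 signals, 1 for each probe set on each array. Their processing is known only from the submitters' processing notes, which name MAS5, RMA and Partek without versions or roles. No source used here gives the scaling or the logarithm's base, which were read from the values (3.74 to 14.90). Scanner intensities were not used here, and detection was not assessed. Control probe sets (77) did not enter the tests.

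Groups were compared with limma 3.58.1 in R 4.3.3 (lmFit, eBayes) on all 9 arrays and 22548 probe sets, with a coefficient per genotype and no block, 6 residual and 3.92 prior degrees of freedom, and Benjamini-Hochberg adjustment over all probe sets. Calls are adjusted p-values under 0.05. Each change is a difference of group means with the fit's SE. Its limma p-value sets that difference against the spread between arrays of the same genotype, as moderated by eBayes. A fold is printed if both group means exceeded the median mean of all probe sets (7.45). The fit was also run on simulated data with independent noise on each array. Those data held no paired replicates and no RNA quality differences, so that run does not bear on either. Single values per array were compared with exact two-sided permutation tests.

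The members, gene lists, tests and naming rule were chosen with earlier results of these data known. The rule named every called member, the 5 largest and 5 smallest changes per comparison, 16 members with a described ligand or role, called genes of each list, and ogt-1 and oga-1. Genes named only because their arrays did not overlap, or with the wild-type spread, were chosen after their values were seen. All 77 members matched the RefSeq gene table of WBcel235, which was used for names, chromosomes and gene order.

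The labels give each genotype replicates 1 to 3 without saying what a number shares. Deviations from the group means correlated at 0.1004 to 0.3026 between same-numbered ogt-1 mutant and wild-type arrays, at 0.1065 to 0.3217 between ogt-1 and oga-1 mutant arrays, and at 0.0052 to 0.2143 between oga-1 mutant and wild-type arrays. In the first 2 of these comparisons all 3 correlations exceeded 0.1, a limit chosen here that the lowest barely passed. Between oga-1 mutant and wild-type arrays the lowest did not exceed it. Numbers that pair the ogt-1 mutant with both other genotypes would also pair the oga-1 mutant with wild type. The limit therefore cannot decide whether the numbers pair the arrays. Calls made only with the block, among them frpr-11 and dmsr-7, depend on that undecided pairing. Alternatives covered the replicate block, an RNA quality covariate, left-out arrays, moderation, a filter on low signal, scaling and the choice of probe set.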

Additional observations from a re-analysis of the deposited data

How the results depend on the processing

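With the replicate number as a block, 3 receptor genes were called in ogt-1 mutant against wild type, and the counts in the other comparisons stayed at 1, with 163 probe sets called in the whole table in oga-1 mutant against wild type (112 without the block). By the correlation limit alone the numbers did not pair the oga-1 mutant and wild-type arrays. Pairing in the other comparisons would imply pairing here too, so the block holds for every comparison or for none. The block changed no other call of a named receptor gene.

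With the control gap as a covariate, and with the block and that covariate together, 0 receptor genes were called in each of the 3 comparisons (over all probe sets 49, 25 and 9 calls with the covariate alone, and 66, 14 and 7 with both). Leaving out 1 array gave 0 to 1 receptor genes in each comparison; whole-table counts were 138 to 533 in ogt-1 mutant against wild type, 27 to 96 in oga-1 mutant against wild type and 255 to 803 in ogt-1 mutant against oga-1 mutant. Fits of only the 2 groups compared, and fits without the 3 arrays that lay farthest out, called 0 receptor genes in oga-1 mutant against wild type and 0 in ogt-1 mutant against oga-1 mutant (over all probe sets 270, 46 and 336 calls, and 262, 9 and 188). Trend and robust moderation called 0 in oga-1 mutant against wild type. The filter on low signal, which removes npr-31 from the test, and a second quantile normalisation called 0 in ogt-1 mutant against oga-1 mutant. The mean of all probe sets of a gene called 2 in ogt-1 mutant against wild type, npr-3 and npr-31 (adjusted p = 0.0472). The filter left 65 calls in oga-1 mutant against wild type, and unmarked probe sets alone left 371 in ogt-1 mutant against oga-1 mutant. Apart from these constructions the cause of a changed count was not tested.

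Of 1824 gene results compared over 20 alternatives, 1795 kept their direction and side of the threshold or stayed uncalled, 26 lost and 3 gained a call, and 0 turned sign while called; 107 turned sign while called in neither fit. Median changes of the receptor genes with 1 array left out ran between -0.10 and 0.06, -0.01 and 0.10, and -0.08 and -0.02 in ogt-1 mutant against wild type, oga-1 mutant against wild type and ogt-1 mutant against oga-1 mutant. Signals near the bottom of the scale have no stated background, which limits what can be said of npr-31 and dmsr-10 to dmsr-15.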
